A study of Danio rerio with 6 samples.

Results

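The genes described here are 10 named genes of the insulin-like growth factor (IGF) system of zebrafish: 8 IGF binding protein genes, the ligand gene igf2b and the receptor gene igf1ra. They were found by gene name in a table of 32520 genes, where 11 genes carried a matching name, and all 11 passed the filter on low counts and were among the 21194 genes tested. The name table writes some symbols in upper case and without the paralog letter. IGFBP1 is igfbp1a by elimination, since igfbp1b is listed under its own name. IGFBP2, IGFBP5 and IGF1R are each carried by a pair of genes that the table does not separate into a and b, so these are given by identifier, and the table does not show which of the pair named IGF1R is igf1ra.

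RNA was sequenced from fluorescent cells that had been sorted at 4 days post fertilization from embryos of an sp7-GFP line, in which the promoter of the osteoblast transcription factor gene sp7 drives green fluorescent protein. The exposed group (3 libraries) came from embryos kept in 200 nM bisphenol A (BPA), a plastics chemical with estrogenic activity, from 24 hours post fertilization. The control group (3 libraries) came from embryos of the same line, and the labels do not state what vehicle its medium held. Each arm held 400 embryos, and whether its 3 libraries hold different embryos is not stated, so the spread behind the p-values may be technical.

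IGF1 and IGF2 are peptide hormones related to insulin that promote growth and act mainly through the type 1 IGF receptor. IGF binding proteins are secreted carriers that hold IGFs with high affinity, which keeps them in circulation or away from the receptor, and in some settings presents them to it. Proteases such as the pappalysins cut certain binding proteins and release the IGF, and stanniocalcins inhibit the pappalysins. In bone, IGFs promote osteoblast growth and matrix formation, and in mammals IGFBP5 is stored in the mineralized matrix. The teleost genome duplication left zebrafish with pairs of many of these genes.

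Library depth ranged from 30748435 to 42863847 counts in the exposed group and from 32173615 to 43403568 counts in the control group. The labels call the cells osteoblasts. The summed level of the osteoblast markers lay between 11800 and 11900 CPM in exposed and between 9870 and 10100 CPM in control libraries, most of it from collagen and SPARC genes that other connective tissue cells also express. COL1A1 (ENSDARG00000035809) averaged 4040 CPM in exposed and 2720 CPM in control libraries, and SPARC 1960 CPM in exposed and 1590 CPM in control libraries. The collagen gene col1a1a went the other way, at 2720 CPM in exposed and 3050 CPM in control libraries. SP7 (ENSDARG00000019516) averaged 8.49 ± 0.355 CPM (counts scaled to a fixed library size) in exposed and 6.87 ± 1.55 CPM in control libraries (SD, n = 3 each). It did not pass the edgeR test described below (adjusted p = 0.175). Of the 16 osteoblast markers tested, 4 were higher and 5 lower past the threshold of that test. No library held a count of bglap, which encodes osteocalcin (0 counts), and a floor of 3 counts puts it at up to 0.0974 CPM in the shallowest library. Markers of other tissues were present: the summed level of 16 skeletal muscle markers lay between 50200 and 51400 CPM in exposed and between 42900 and 45600 CPM in control libraries.

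Among the members, igfbp1b had the largest difference between the groups, 8.73-fold lower in exposed than in control libraries. The other binding protein genes moved less and mostly upward: igfbp6b, both genes named IGFBP5 and 1 gene named IGFBP2 (ENSDARG00000052470) rose, while IGFBP1, IGFBP3 and the other IGFBP2 did not pass the test. The ligand gene igf2b fell, and neither gene named IGF1R passed. In all, 4 of the 11 genes rose, 2 fell and 5 did not pass an adjusted p of 0.05 in edgeR's quasi-likelihood test with Benjamini-Hochberg adjustment over all genes tested. The 11 genes include both named IGF1R, although only igf1ra is a listed member. Of all tested genes 38.8% passed, 20.1% higher and 18.7% lower in the exposed libraries. Differences between the pools or sorts of the arms cannot be told apart from those of the exposure. The members' share of 54.5% therefore stands on a high background and is not by itself a result about them. The CPM of the groups did not overlap for 6 of the 11 genes, against 48.4% of all genes tested. The median log2 fold change was -0.12 over the members, and -0.00293 over all genes tested.

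**Figure D1:**
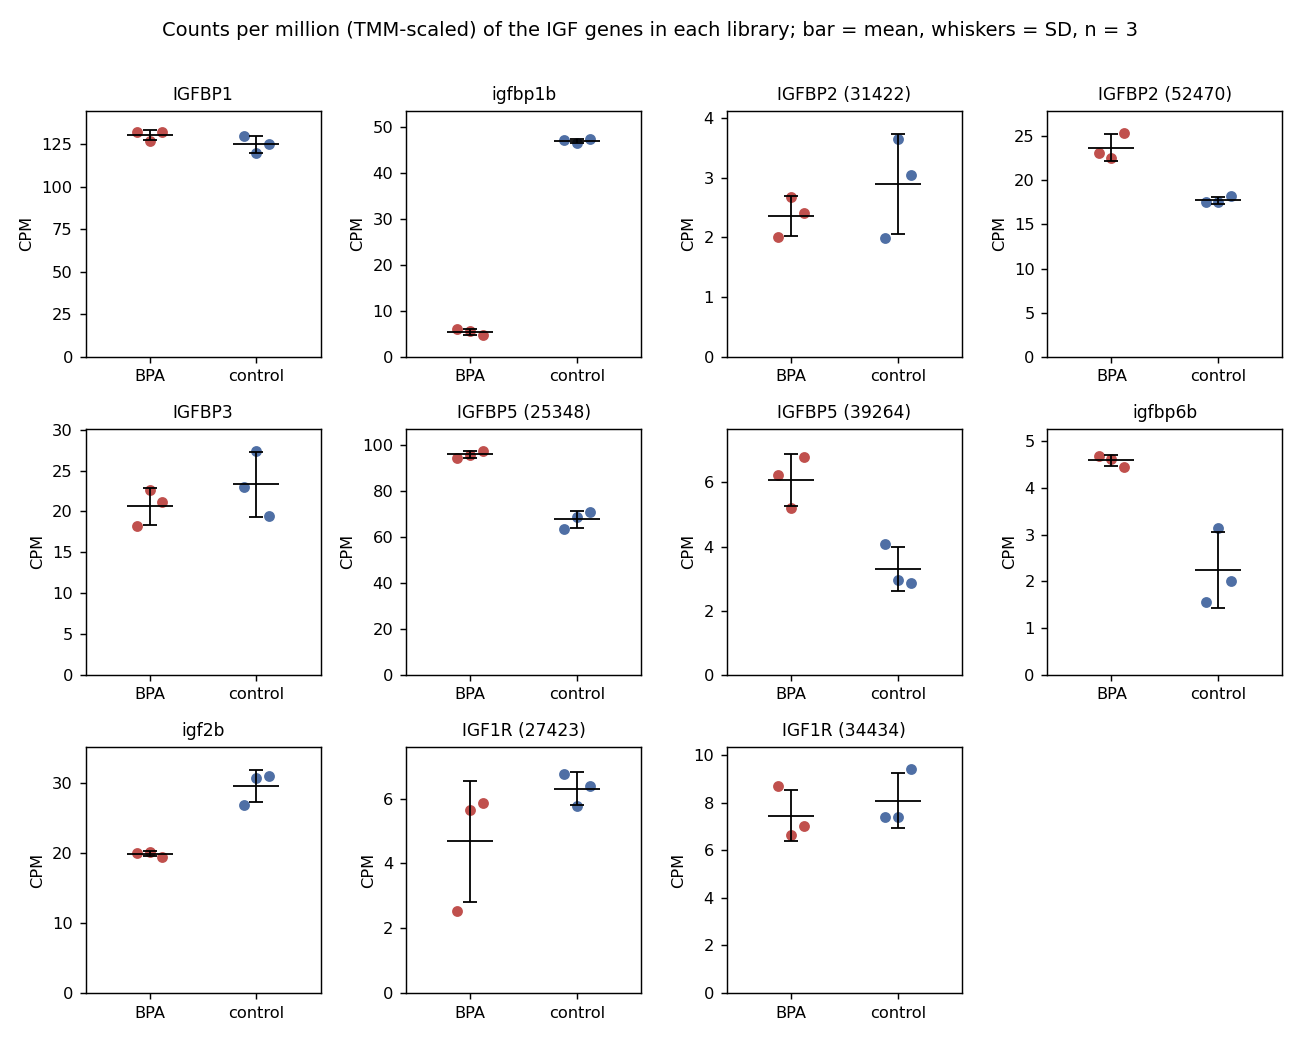
Level of each of the 11 genes (y axis, CPM scaled by TMM, from 0) in the 3 BPA-exposed and the 3 control libraries; points are libraries, bars are means and whiskers SD. The exposed points of igfbp1b sit between 4.75 and 5.94 CPM, far under the control points at 46.5 to 47.3 CPM, while those of IGFBP1 overlap between the groups.

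IGFBP1 in mammals is made mainly by the liver, rises on fasting and low oxygen, and restrains IGF action. In zebrafish both paralogs encode secreted IGF binding proteins, and igfbp1a is known as a gene that hypoxia induces. The igfbp1b gene (ENSDARG00000038666) was at 5.94, 5.52 and 4.75 CPM in exposed libraries 1 to 3, against 47.0, 46.5 and 47.3 CPM in control libraries 1 to 3. Every exposed library was far below every control library, and the values within a group lay close together. The gene fell by 3.13 on the log2 scale (SE 0.09, adjusted p = 5.14e-21). Of the 21194 genes tested, 17 had a more negative log2 fold change.

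Its paralog IGFBP1 (ENSDARG00000099351) was at 132, 127 and 132 CPM in exposed libraries, against 130, 120 and 125 CPM in control libraries. These ranges overlapped, and the log2 fold change of 0.06 ± 0.04 (SE) did not pass (adjusted p = 0.299). To compare the paralogs within each library, the counts of the pair were summed, without correction for transcript length. The share of igfbp1b among them was 4.31% (95% Clopper-Pearson interval 3.72 to 4.96), 4.15% (3.64 to 4.71) and 3.47% (3.02 to 3.98) in the exposed libraries. In the control libraries it was 26.6% (25.5 to 27.7), 27.9% (26.8 to 28.9) and 27.5% (26.3 to 28.7). These intervals cover counting error only, and they are too narrow if both mates of a read pair were counted, as the many even counts allow. The log2 ratio of IGFBP1 to igfbp1b averaged 4.60 ± 0.17 in exposed and 1.41 ± 0.05 in control libraries (SD, n = 3 each). The difference of 3.18 ± 0.10 (SE) separated the groups in full (two-sided exact permutation p = 0.1; no smaller p is possible in this design; 0.3 adjusted over 6 pairs).

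**Figure D2:**
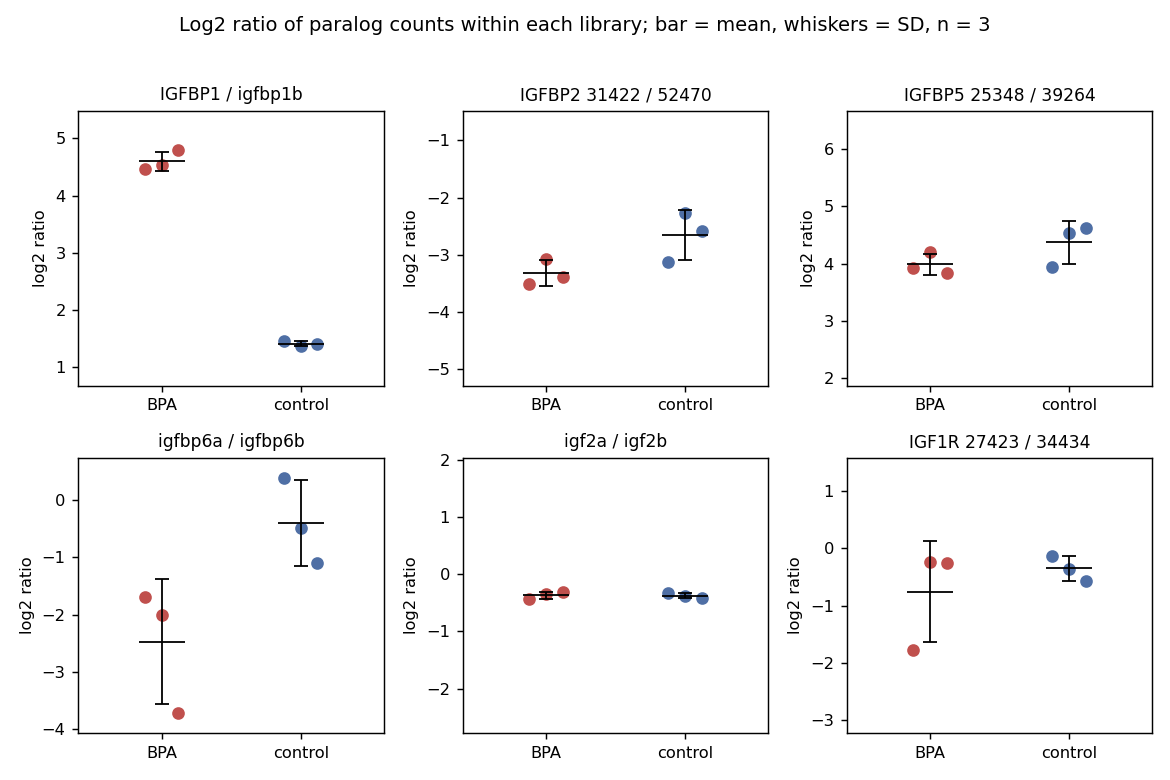
Log2 ratio of the counts of 6 paralog pairs within each library (y axis, the same span of log2 units in every panel) in exposed and control libraries; bars are means and whiskers SD over 3 libraries. The igfbp1 pair shifts by 3.18 log2 units between the groups, and the igf2 pair by 0.01.

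Liver markers were lower in the exposed libraries as well. Of these, 22 of 24 fell and 0 rose, a share of 91.7% called against 38.8% of all genes tested. The median log2 fold change of the list was -1.58, with a range of -2.47 to 0.04. The liver carrier gene fabp10a averaged 158 ± 3.60 CPM in exposed and 675 ± 29.7 CPM in control libraries (SD, n = 3 each). The iron hormone gene hamp, with the lowest log2 fold change of the list, averaged 6.92 ± 0.643 CPM in exposed and 38.2 ± 5.14 CPM in control libraries. The log2 fold change of igfbp1b lay below those of all 24. The liver enzyme gene tdo2b, outside the list, had the same value (-3.13), but was picked for its likeness to igfbp1b, as given below. The summed level of these markers was 4630 to 4800 CPM in exposed and 8370 to 8490 CPM in control libraries. Per 1000 counts of liver markers, igfbp1b had 1.28, 1.15 and 0.989 counts in the exposed libraries and 5.54, 5.55 and 5.63 in the control libraries, a log2 ratio of group means of -2.29. The marker RBP4, whose product carries retinol, is the most abundant of them, at 3180 ± 91.8 CPM in exposed and 3470 ± 24.1 CPM in control libraries. Without it, a choice made after its level was seen, the sum was 1560 to 1570 CPM in exposed and 4900 to 5050 CPM in control libraries, and igfbp1b per 1000 such counts was 3.81, 3.51 and 3.03 in exposed and 9.32, 9.49 and 9.65 in control libraries, a log2 ratio of -1.46. In sorted cells measured in bulk, fewer cells of a type and less RNA per cell cannot be told apart, and the part of liver cells in the igfbp1b difference was not tested.

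In the RefSeq order of genes on the GRCz12tu assembly, igfbp1b is flanked by znfl2a and, one gene further, fggy on the same side. On its other side lie adcy1b, whose name matched 2 identifiers and was not resolved, and si:dkey-38n4.2, at 0 CPM in every library, so that flank gives no comparison. These neighbours were chosen after their values were seen. The znfl2a gene (ENSDARG00000008333) averaged 4.18 ± 0.956 CPM in exposed and 6.01 ± 0.877 CPM in control libraries (log2 fold change -0.52, adjusted p = 0.0486). That call was lost without any of several libraries, with adjusted p up to 0.259 (without exposed library 2). With all libraries kept, it was also lost in the DESeq2 Wald test (adjusted p = 0.0727) and in edgeR with upper-quartile scaling (adjusted p = 0.0504). The kinase gene fggy (ENSDARG00000038667) averaged 6.98 ± 0.827 CPM in exposed and 8.29 ± 1.34 CPM in control libraries (log2 fold change -0.25, adjusted p = 0.264). In the same order igfbp1a lies next to igfbp3, igfbp2a next to igfbp5a, and igfbp2b next to igfbp5b.

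Over the 6 libraries, the genes whose centred log2 CPM lay closest to that of igfbp1b, out of 17053 compared, were tdo2b, MT1X (ENSDARG00000041623), si:ch1073-464p5.5, zgc:172051 and her4.1. Their root mean square distances were 0.136 to 0.181 log2 units. The liver enzyme gene tdo2b, which degrades tryptophan, averaged 1.80 CPM in exposed and 15.6 CPM in control libraries. The Notch target gene her4.1 averaged 1.32 CPM in exposed and 10.9 CPM in control libraries, and the metallothionein gene MT1X 15.4 CPM in exposed and 119 CPM in control libraries. The gene si:ch1073-464p5.5 averaged 17.6 CPM in exposed and 183 CPM in control libraries, and zgc:172051 4.45 CPM in exposed and 45.8 CPM in control libraries. Their log2 fold changes of -3.38 and -3.37 lay below that of igfbp1b. For IGFBP1 the closest were uqcrc2a, BHLHE40, nme2b.2, COL2A1 (ENSDARG00000011407) and UTP4, at distances of 0.017 to 0.020 and with log2 fold changes of 0.05 to 0.09. With 2 groups and 6 libraries, this measure mainly reflects the size of the difference between the groups.

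IGFBP5 binds IGFs and extracellular matrix, and in zebrafish larvae igfbp5a is known from the calcium-transporting ionocytes of the skin. Which of the IGFBP5 genes below is igfbp5a was not settled. IGFBP5 (ENSDARG00000025348) was at 94.4, 95.8 and 97.3 CPM in exposed libraries, against 63.5, 68.5 and 70.8 CPM in control libraries. The groups did not overlap, and the gene rose by 0.50 ± 0.05 (SE) on the log2 scale, or 1.42-fold (adjusted p = 7.32e-09). The second IGFBP5 (ENSDARG00000039264) was at 6.24, 5.21 and 6.79 CPM in exposed libraries, against 4.08, 2.95 and 2.85 CPM in control libraries. It rose as well, by 0.88 ± 0.20 on the log2 scale (adjusted p = 0.00144). The log2 ratio of the first to the second averaged 3.99 ± 0.19 in exposed and 4.37 ± 0.36 in control libraries (SD, n = 3 each), and those ranges overlapped (difference -0.39, exact permutation p = 0.2).

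Ionocyte markers were mostly higher in the exposed libraries, as were markers of epidermis, skeletal muscle and leukocytes, given below. Of 18 ionocyte markers, 14 were higher and 2 lower past the threshold (median log2 fold change 0.79). Their summed level was 2400 to 2450 CPM in exposed and 1600 to 1650 CPM in control libraries, a log2 ratio of 0.58. The calcium channel gene TRPV6, which defines the calcium-transporting ionocyte, averaged 78.3 ± 4.66 CPM in exposed and 79.1 ± 2.93 CPM in control libraries (log2 fold change -0.01, adjusted p = 0.891). Among the other markers, SLC4A1 (ENSDARG00000012881), an anion exchanger gene, averaged 20.1 CPM in exposed and 6.25 CPM in control libraries. An ammonium transporter gene, RHCG (ENSDARG00000007080), averaged 12.8 CPM in exposed and 3.17 CPM in control libraries. Another RHCG (ENSDARG00000003203) averaged 88.9 CPM in exposed and 128 CPM in control libraries, and the sodium pump subunit gene ATP1B1 (ENSDARG00000013144) 169 CPM in exposed and 188 CPM in control libraries. The names SLC4A1, RHCG, ATP1B1 and ATP6V1A are each carried by several genes that the name table does not separate by paralog letter. Which of them are the listed markers slc4a1b, rhcgb, atp1b1b and atp6v1aa was not settled. All were counted, so 13 matched symbols gave 18 ionocyte genes. The part of ionocytes, or of the other cell types, in the IGFBP5 differences was not tested.

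IGFBP2 is a binding protein that in mammals is abundant in fetal serum and brain, and zebrafish igfbp2a is known from the larval liver. Which of the IGFBP2 genes below is igfbp2a was not settled. IGFBP2 (ENSDARG00000052470) was at 23.1, 22.5 and 25.4 CPM in exposed libraries, against 17.5, 17.5 and 18.2 CPM in control libraries. All exposed values were above all control values, and the gene rose by 0.42 ± 0.06 on the log2 scale (adjusted p = 9.21e-04). IGFBP2 (ENSDARG00000031422) was at 2.01, 2.67 and 2.41 CPM in exposed libraries, against 1.99, 3.64 and 3.04 CPM in control libraries. Those ranges overlapped and the log2 fold change of -0.29 ± 0.28 did not pass (adjusted p = 0.466). The difference of -0.67 ± 0.28 in the log2 ratio of ENSDARG00000031422 to ENSDARG00000052470 did not separate the groups (exact permutation p = 0.2).

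IGFBP6 prefers IGF2 over IGF1. The igfbp6b gene (ENSDARG00000090833) was at 4.68, 4.62 and 4.45 CPM in exposed libraries, against 1.56, 3.14 and 2.01 CPM in control libraries. The exposed values were close together and above the control values, which were spread more widely, and the gene rose by 1.02 ± 0.29 on the log2 scale (adjusted p = 0.00213). Its paralog igfbp6a was at 1.43, 1.14 and 0.328 CPM in exposed libraries, against 2.04, 2.23 and 0.930 CPM in control libraries. It did not pass (log2 fold change -0.86 ± 0.72, adjusted p = 0.147), but did without control library 3 (-1.16, adjusted p = 0.0429). The log2 ratio of igfbp6a to igfbp6b averaged -2.47 ± 1.09 in exposed and -0.40 ± 0.75 in control libraries, without overlap (exact permutation p = 0.1, or 0.3 adjusted over the pairs).

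IGFBP3 is the main IGF carrier of mammalian serum, where it forms a complex with the product of IGFALS. IGFBP3 (ENSDARG00000099144) was at 18.2, 22.6 and 21.1 CPM in exposed libraries, against 23.0, 27.4 and 19.5 CPM in control libraries. The ranges overlapped and the gene did not pass (log2 fold change -0.18 ± 0.17, adjusted p = 0.217), except without control library 3, its lowest control value (-0.29, adjusted p = 0.0325). IGFALS averaged 0.518 ± 0.329 CPM in exposed and 0.716 ± 0.359 CPM in control libraries (adjusted p = 0.614). Over all 9 binding protein genes, igfbp6a included, 4 rose, 1 fell and 4 did not pass, a share of 55.6% called against 38.8% of all genes tested. Their summed level was 288 to 294 CPM in exposed and 290 to 292 CPM in control libraries. The sum thus stayed within a few CPM while its composition differed, igfbp1b contributing less and IGFBP5 more in the exposed libraries.

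The 3 IGF ligand genes tested were lower. The igf2b gene (ENSDARG00000033307) was at 20.0, 20.2 and 19.5 CPM in exposed libraries, against 26.9, 30.8 and 31.1 CPM in control libraries. The groups did not overlap, and igf2b fell by 0.57 on the log2 scale (SE 0.07, adjusted p = 6.17e-06). Its paralog igf2a (ENSDARG00000018643) was at 14.7, 15.8 and 15.6 CPM in exposed libraries, against 21.5, 23.5 and 23.4 CPM in control libraries, and fell by 0.56 (SE 0.05, adjusted p = 3.79e-05). The log2 ratio of igf2a to igf2b averaged -0.37 ± 0.06 in exposed and -0.38 ± 0.04 in control libraries, a difference of 0.01 ± 0.05 (SE; exact permutation p = 0.9). IGF1 was low in these cells, at 0.520, 1.09 and 1.24 CPM in exposed libraries and 1.34, 1.95 and 4.00 CPM in control libraries. It fell by 1.33 on the log2 scale (SE 0.58, adjusted p = 0.0105), but no longer passed without exposed library 1 (-1.05, adjusted p = 0.072) or control library 3 (-0.78, adjusted p = 0.179). Liver, which supplies most circulating IGF1 in vertebrates, also had lower markers in the exposed libraries, as given above, and its part in the ligand differences was not tested.

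Of the 4 ligand genes tested, 3 fell and 1 rose, the insulin gene (100% called, against 38.8% of all genes tested). The ins gene (ENSDARG00000035350), made by pancreatic beta cells, was at 13.8, 12.9 and 12.1 CPM in exposed libraries, against 6.77, 7.41 and 6.57 CPM in control libraries. It rose by 0.90 ± 0.08 on the log2 scale (adjusted p = 5.17e-06). The gonadal ligand gene igf3 had 0, 0 and 4 counts in exposed and 0, 0 and 6 counts in control libraries, and the second insulin gene insb 2, 0 and 4 counts in exposed and 0, 0 and 3 counts in control libraries, too few to test.

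Of 5 receptor genes, 1 rose, 1 fell and 3 did not pass (40.0% called, against 38.8% of all genes tested). IGF1R (ENSDARG00000034434) was at 8.70, 6.66 and 7.02 CPM in exposed libraries, against 7.41, 7.41 and 9.42 CPM in control libraries, with no call (log2 fold change -0.12 ± 0.16, adjusted p = 0.632). IGF1R (ENSDARG00000027423) was at 2.53, 5.66 and 5.85 CPM in exposed libraries, against 6.77, 5.77 and 6.39 CPM in control libraries. Exposed library 1 held the low value, and the log2 fold change of -0.42 ± 0.40 (adjusted p = 0.159) became -0.13 without it (adjusted p = 0.7). IGF2R, which in mammals binds IGF2 and carries it to lysosomes, rose (12.3 ± 0.977 CPM in exposed and 9.35 ± 0.771 CPM in control libraries, adjusted p = 0.0192). It no longer passed when exposed library 3 (adjusted p = 0.123) or control library 3 (adjusted p = 0.0595) was left out. The insulin receptor gene INSR (ENSDARG00000011948) fell (54.6 ± 1.93 CPM in exposed and 64.3 ± 0.775 CPM in control libraries, adjusted p = 0.00182), and the other INSR (ENSDARG00000071524) averaged 24.2 CPM in exposed and 21.4 CPM in control libraries (adjusted p = 0.148).

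**Figure D3:**
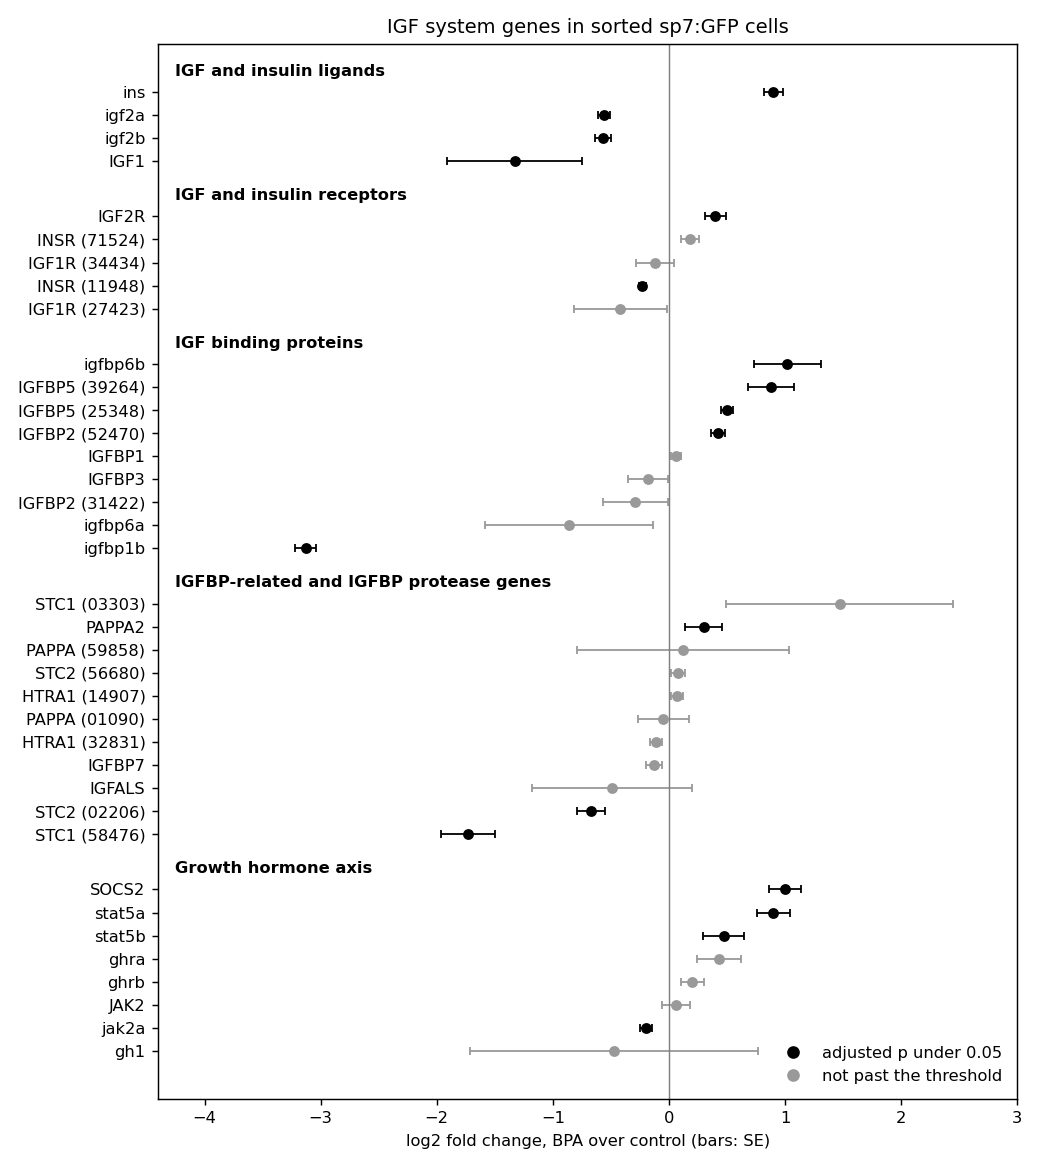
Log2 fold change, BPA over control (x axis), of the tested genes of the IGF and insulin system and the growth hormone axis, with bars for the SE; black points passed an adjusted p of 0.05 and grey points did not, and numbers in brackets are the last digits of the gene identifier. The gene igfbp1b at -3.13 lies apart from the other genes, which range from -1.73 to 1.47.

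Among 11 genes for IGFBP-related proteins, IGFBP proteases and their inhibitors, 1 rose, 2 fell and 8 did not pass. That is a share of 27.3% called, against 38.8% of all genes tested. The stanniocalcin gene STC1 (ENSDARG00000058476) was at 1.62, 1.52 and 1.15 CPM in exposed libraries, against 5.88, 3.80 and 4.49 CPM in control libraries. It fell by 1.73 on the log2 scale (SE 0.23, adjusted p = 6.25e-06), and STC2 (ENSDARG00000102206) fell by 0.67 (SE 0.12, adjusted p = 0.00806). The second STC1 (ENSDARG00000003303) averaged only 0.384 CPM in exposed and 0.135 CPM in control libraries. It did not pass (log2 fold change 1.47 ± 0.98, adjusted p = 0.267), nor did the second STC2 (ENSDARG00000056680; 0.08, adjusted p = 0.701). The pappalysin gene PAPPA2, whose product cuts IGFBP5 in mammals, averaged 18.1 ± 1.53 CPM in exposed and 14.6 ± 2.69 CPM in control libraries. Its adjusted p of 0.0498 was at the threshold and went up to 0.248 when single libraries were left out (without exposed library 2). With all libraries kept, it also missed the threshold in the DESeq2 Wald test (adjusted p = 0.0924). The same held in edgeR with DESeq2 size factors in place of TMM (adjusted p = 0.0524). The genes named PAPPA, ENSDARG00000059858 and ENSDARG00000101090, had adjusted p of 0.896 and 0.919.

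In the growth hormone axis, which drives IGF1 synthesis, 3 of 8 genes rose, 1 fell and 4 did not pass (50.0% called, against 38.8% of all genes tested). SOCS2, a feedback inhibitor of growth hormone signalling that STAT5 induces, was at 6.20, 7.23 and 5.19 CPM in exposed libraries, against 3.22, 2.93 and 3.13 CPM in control libraries, and rose by 1.00 ± 0.14 on the log2 scale (adjusted p = 2.82e-04). The transcription factor genes stat5a and stat5b rose by 0.90 ± 0.14 (adjusted p = 8.85e-05) and 0.47 ± 0.18 (adjusted p = 0.00532). These genes also act downstream of cytokine receptors, and leukocyte markers were higher in the exposed libraries: 8 of 10 rose, 0 fell and 2 did not pass, with summed levels of 245 to 261 CPM in exposed and 159 to 168 CPM in control libraries. Their part in these differences was not tested. The kinase gene jak2a had a log2 fold change of -0.20, with an adjusted p of 0.0478 that went up to 0.189 without exposed library 2. With all libraries kept, jak2a also missed the threshold in the DESeq2 Wald test (adjusted p = 0.0643). In edgeR it missed it without the low-count filter (adjusted p = 0.0611) and with a replicate block in the model (adjusted p = 0.0534).

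Genes further along the pathway went both ways. The shares called in the lists below compare with 38.8% of all genes tested. Of 15 receptor substrate and adaptor genes, 2 rose, 1 fell and 12 did not pass, a share of 20.0% called: SHC1 (55.8 ± 1.44 CPM in exposed and 40.7 ± 2.42 CPM in control libraries) and IRS2 (ENSDARG00000075282; 48.0 ± 4.09 CPM in exposed and 37.7 ± 1.99 CPM in control libraries) rose, and grb2b fell (57.6 ± 1.99 CPM in exposed and 68.9 ± 1.50 CPM in control libraries). In the PI3K-AKT-TOR list 7 of 27 rose, 6 fell and 14 did not pass, a share of 48.1%. Of these, the kinase genes rps6kb1a (log2 fold change 0.78) and PIK3CB (0.65) rose, while the small GTPase gene rheb (-0.83), akt3b (-0.69) and the regulatory subunit gene pik3r3a (-0.52) fell. The kinase gene PDPK1 (ENSDARG00000062304, log2 fold change 0.45, adjusted p = 0.0485) lost its call in several left-out sets, with adjusted p up to 0.191 without control library 2. PDPK1 also lost it in the DESeq2 Wald test with all libraries kept (adjusted p = 0.076). The call of akt3b was lost without exposed library 3 (adjusted p = 0.0582). FOXO factors are kept out of the nucleus by insulin and IGF signalling and induce IGFBP1 in mammals. Their part in the igfbp1b difference was not tested. Of 7 FOXO genes, 0 were higher, 2 lower and 5 not past, a share of 28.6% called against 38.8% of all genes tested. The lower ones were FOXO1 (ENSDARG00000099555; 15.3 ± 0.390 CPM in exposed and 22.1 ± 1.58 CPM in control libraries) and foxo3a (34.6 ± 1.92 CPM in exposed and 45.1 ± 3.00 CPM in control libraries).

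The hypoxia response list was described because low oxygen induces igfbp1a. Of 30 genes 7 rose, 6 fell and 17 did not pass (43.3% called, against 38.8% of all genes tested). The median log2 fold change of the list was 0.03. The glucose transporter gene SLC2A1 (ENSDARG00000007412) rose by 1.07, NDRG1 (ENSDARG00000032849) by 1.05 and the oxygen sensor gene EGLN3 by 0.91 on the log2 scale. The glycolysis regulator PFKFB4 fell by 0.98, the other NDRG1 (ENSDARG00000010420) by 0.88 and the vessel growth factor VEGFA (ENSDARG00000103542) by 0.62. A part of low oxygen in these differences, or in that of igfbp1b, was not tested.

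**Figure D4:**
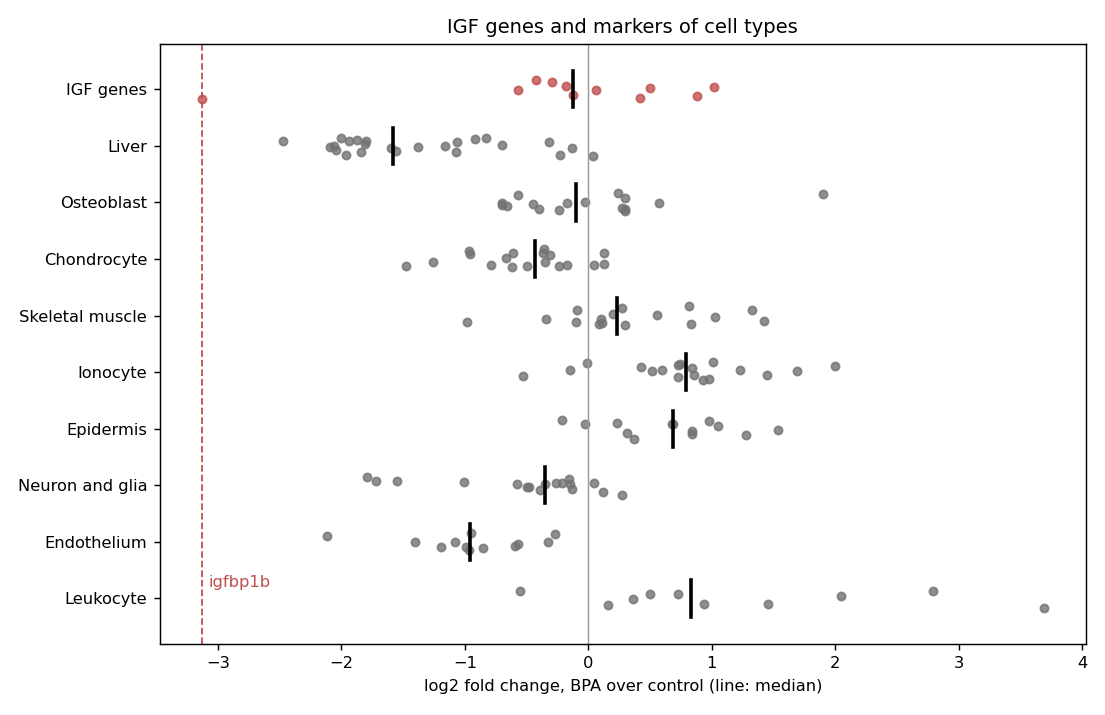
Log2 fold change, BPA over control (x axis), of the 11 IGF genes (red) and of markers of 9 cell types (grey); each point is a gene, its height within a row has no meaning, and black lines are medians. The dashed line marks igfbp1b, which lies below every marker shown, including the liver markers, whose lowest is at -2.47. The liver enzyme gene tdo2b, at -3.13, is not among the markers shown and was picked for its likeness to igfbp1b.

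Markers of the other cell types also differed between the groups, and their part in the members' differences was not tested. Osteoblast markers had 4 of 16 higher, 5 lower and 7 not past, with COL1A1 (ENSDARG00000035809; log2 fold change 0.57) and SPARC (0.30; a bone matrix protein) among the higher and spp1 (-0.70) and DLX5 (-0.66) among the lower; leaving out exposed library 3 took spp1 to an adjusted p of 0.156, and it also missed the threshold without control library 2 or 3. Chondrocyte markers had 13 of 18 lower and 0 higher, endothelial markers 10 of 12 lower and 0 higher, and neuron and glia markers 11 of 17 lower and 0 higher. Skeletal muscle markers had 12 of 16 higher and 3 lower, and epidermal markers 11 of 13 higher and 1 lower. Summed levels of the epidermal markers were 26900 to 27600 CPM in exposed and 15500 to 16000 CPM in control libraries. Over the 9 marker lists, the share called ran from 56.2% (osteoblast) to 93.8% (skeletal muscle), against 38.8% of all genes tested.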

How the data were processed

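RNA of sorted cells was measured in 6 libraries. The deposited table holds raw counts per Ensembl gene, not normalized; the submitters' processing notes name the build GRCz11 and the tools STAR 2.7.10a, featureCounts 2.0.6, FastQC and R 4.4.2; options, strand setting and annotation release are not given in the sources used here. Between 76.1% and 81.7% of nonzero counts were even, so both mates of a pair may have been counted. Overlapping genes and near-identical paralogs are uncertain.

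Gene names covered 29201 genes. Counts were tested in R 4.3.3 with edgeR 4.0.16 (alternatives: DESeq2 1.42.0, limma 3.58.1): filterByExpr by group (minimum count 10, total 15), TMM scaling, a robust quasi-likelihood F-test of exposed against control, and Benjamini-Hochberg adjustment over all tested genes at 0.05. The procedure was tested on simulated data in which far fewer genes changed than were called here. That test does not cover so broad a difference. CPM use TMM library sizes; SEs come from the variances of log2 CPM (prior count 2) in each group. Paralog ratios used counts plus 0.5 and a two-sided exact permutation test. In the IGFBP2, IGFBP5 and IGF1R pairs the lower identifier is the numerator. In the other pairs it is the a paralog, which is IGFBP1 for the igfbp1 pair.

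The 18 lists (9 of pathway genes, 9 of markers) had 170 symbols matched by name, 77 without the paralog letter and 15 unmatched. Where several genes carried a matched name, all of them were counted. The members and lists were chosen with earlier results of these data known. Other genes named by rule are igfbp6a, igf2a, the second IGF1R (counted among the 11 genes), IGF1 and IGFALS. Per list and direction, the 3 (markers: 2) largest called changes with a mean of at least 1 CPM were also named. So were the 5 genes most like igfbp1b and IGFBP1. Added outside that rule, after their values were seen, were TRPV6, RBP4, bglap, SP7, col1a1a, PAPPA, igf3 and insb. The second INSR, the second STC1, the second STC2 and the neighbours of igfbp1b were added in the same way.

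Alternatives were other scalings, no filter, DESeq2, limma voom, a replicate block, halved counts and leaving out each library.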

Additional observations from a re-analysis of the deposited data

How the results depend on the processing

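All 6 member calls held in each of 13 alternatives, and of 68 other genes that the naming rule or the neighbour order picked, not all of them described above, 12 lost or gained a call in at least 1. Without single libraries 6 to 7 members and 6712 to 8063 genes were called, with 3484 to 4240 higher and 3215 to 3823 lower. The exception among the members was IGFBP3, which passed without control library 3; its log2 fold change ranged from -0.29 to -0.04. That of igfbp1b ranged from -3.19 to -3.04. IGF1R (ENSDARG00000034434) ranged from -0.24 to 0.00, where its sign turned. The paralog differences ranged from -0.02 to 0.04 for igf2 and from -0.67 to 0.10 for igf1r, so their signs turned as well. The igfbp1b ratio to liver markers moved by more than the replicate SD when RBP4 was left out, a choice made after its level was seen (-2.29 and -1.46).

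Same-numbered libraries did not visibly deviate together over the genes (correlations of -0.0131, -0.00375 and 0.0119). These values were not tested, and they cannot show that the numbers carry no pairing. With the replicate block 6 members and 8164 genes were called, against 8213 without it; the igfbp1 ratio gave 3.18 (exact sign-flip p = 0.25, the smallest that 3 pairs allow).

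Low counts limit the precision of IGF1, igfbp6a and IGFALS, and igf3 and insb had too few to test.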
